A study of Homo sapiens with 16 samples.

Results

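The cells described here are those of kidney organoid cultures that a marker gate picks out as central neuron-like. Kidney organoids are small spheroids of nephron tissue grown from human embryonic stem cells, and cultures of this kind also hold cells of other lineages, neurons among them. Cells with over 500 detected genes were kept where at least 1 UMI (a counted transcript molecule) was seen in 3 or more of the 8 genes CRABP1, POU2F2, IGFBPL1, POU3F2, DLL3, BARHL2, UBE2QL1 and ADCYAP1. Cells with a UMI in 2 or more of the 4 sensory neuron genes HMX1, NEUROD1, PRPH and ISL1 were taken out. The gate held 1912 of 35066 cells, or 5.45% (95% exact Clopper-Pearson interval 5.22 to 5.70, counting error only). The cells were thus chosen by the measured UMIs of these 12 gate genes, whose values are a description and support nothing below.

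The single-cell data are 1 library of day 24 organoids under vehicle (VC) and 1 library of day 24 organoids under TNFα, a cytokine of inflammation, for 24 h at 5 ng/ml. Whole wells were dissociated for these libraries. Bulk RNA of isolated spheroids from the UM77-2 embryonic stem cell line was measured in set 1 (1 library each on days 21, 25 and 29), in set 2 (the same days with 2 libraries each) and in spheroids given VC or 5 ng/ml TNFα for 24 h or 48 h (1 library each). The labels of the VC and TNF spheroids give no day, and the study names day 25 for almost all samples of its TNFα experiments. No group carried a genetic change according to the labels. The labels do not say whether the set 2 libraries of a day came from separate differentiations, and the study speaks of repeated experiments only in general, so their p-values may measure technical spread.

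Neurons of the hindbrain and spinal cord arise from dividing progenitors in a fixed order. Proneural factors of the basic helix-loop-helix family and Notch ligands commit a cell, transient genes such as INSM1 and HES6 mark the newborn neuron, and homeodomain factors (LHX, BARHL, HOX) then set its class and its position along the body axis. CRABP1 binds retinoic acid inside the cell, POU2F2 and POU3F2 are POU factors, ADCYAP1 encodes the neuropeptide PACAP, DLL3 is a Notch ligand-like protein of differentiating cells, and BARHL2 marks dorsal commissural neurons.

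In the VC library 1071 of 11906 cells passed the gate, or 9.0% (8.49 to 9.52), and in the TNF library 841 of 23160, or 3.63% (3.39 to 3.88). The libraries differed in depth. The median cell held 6358.5 UMIs under VC and 2599 under TNF, and the VC and TNF gated cells had medians of 6102 and 3565. A cell with more UMIs passes the gate more easily, so every cell was also thinned to 1500 UMIs. The gated share was then 5.65% under VC, where 953 shallower cells were left out, against 9.18% for the same cells unthinned. It was 1.75% under TNF, where no cell was left out. With 1 library per condition there is no replicate check and no test of this difference. The libraries shared 74 barcodes, 0.622% of VC and 0.320% of TNF cells. The exclusion rule removed 391 of 1462 VC cells that met the first rule and 141 of 982 TNF cells.

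Whether the gated cells were neurons was read from 16 pan-neuronal genes that the gate did not use. Their summed level, in counts per 1000000 UMIs (CPM), was 7602 in gated VC cells against 2249 in all other VC cells, and 5134 against 1436 in the TNF library. It was lowest in gated cells with few gate genes. VC cells just outside the gate, with 2 gate genes (970 cells), stood at 1099 CPM, and those just inside, with 3 (306 cells), at 2701 CPM. With 4 gate genes the level was 7332 CPM, with 6 it was 9974 CPM, with 7 it was 14439 CPM and with 8 it was 14228 CPM (108 cells). The TNF library ran from 1352 CPM (2195 cells with 2 gate genes) over 2102 CPM (463 cells with 3) to 14236 CPM (29 cells with 8). Cells at the lower edge of the gate thus carried far less neuronal RNA than cells with most gate genes.

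**Figure D1:**
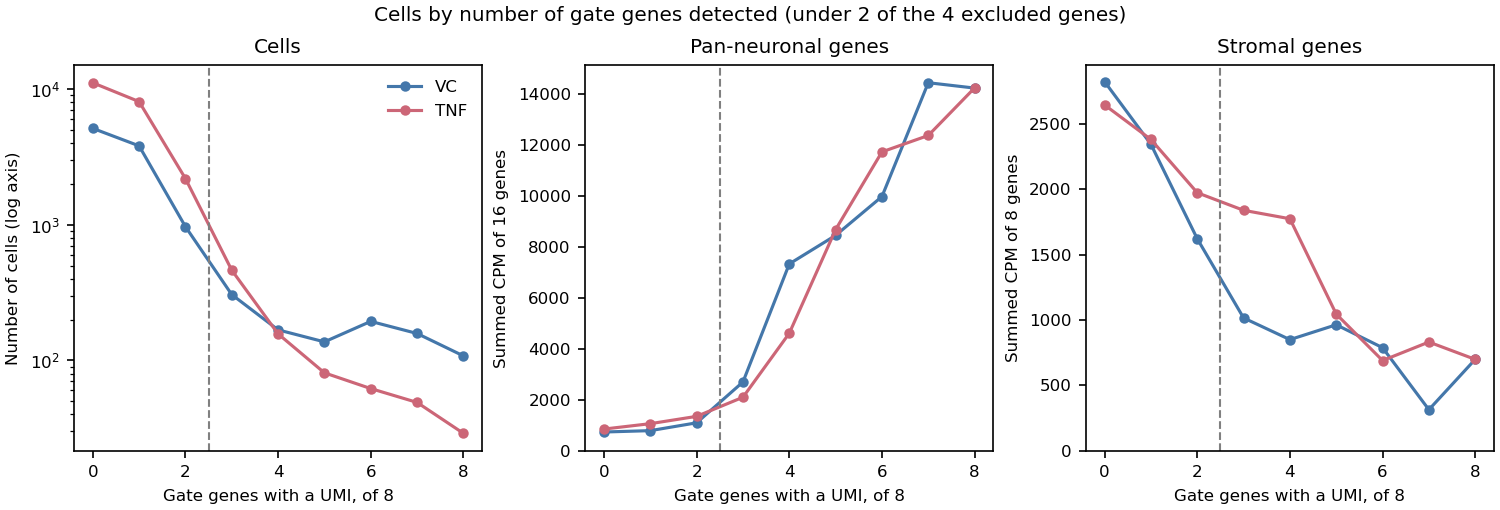
Number of cells (log axis), summed CPM of 16 pan-neuronal genes and summed CPM of 8 stromal genes, by the number of gate genes with a UMI in a cell (0 to 8), for VC (blue) and TNF (red). The dashed line marks the gate; from 3 to 8 gate genes the pan-neuronal sum goes from 2701 to 14228 CPM in VC and from 2102 to 14236 CPM in TNF.

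Gated cells also carried RNA of other cell types, at the edge of the gate and above it. The 8 stromal genes (collagens, PDGFRA, DCN, LUM, POSTN, TCF21) summed to 1016 CPM in VC cells with 3 gate genes, to 315 CPM in those with 7 and to 699 CPM in those with 8, and to 1838, 832 and 699 CPM in the TNF library. The podocyte sum in VC was 767 CPM with 3 gate genes, 1065 CPM with 6 and 145 CPM with 7, and the muscle sum 521 CPM with 3, 978 CPM with 5 and 48.8 CPM with 7. Podocyte-type cells (5 or more of 8 podocyte genes) are given as a cell type that should lack the gate genes. CRABP1 had a UMI in 97.7% of gated and 37.0% of other VC cells, in 26.9% of the 1451 podocyte-type VC cells (median 5808 UMIs) and in 35.5% of the 2895 podocyte-type TNF cells (median 3513 UMIs). BARHL2 was seen in 34.9% of gated VC cells, in 0.489% of the others and in 0% of podocyte-type VC and 0.380% of podocyte-type TNF cells. Whether the CRABP1 UMIs of podocyte-type cells are free RNA was not tested.

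When the gated cells were clustered without the 12 gate genes, 16 groups resulted, and 5 of them had over 10000 CPM of pan-neuronal RNA and no depth far below that of their libraries. This limit was set after the values were seen, so the neuronal level of these 5 is a choice and not a finding. They held 784 of the 1912 gated cells, or 41.0% (38.8 to 43.2), made up of 553 VC cells (51.6% of gated) and 231 TNF cells (27.5%). Values are given below both for all gated cells and for these 5 groups, called the neuronal groups. The neuronal groups were thus the larger part of the gated VC cells and the smaller part of the gated TNF cells. Pan-neuronal RNA does not tell central from peripheral neurons. The 18 sensory neuron genes summed to 1506 CPM in the VC neuronal groups, against 4228 CPM in the VC cells that carry 2 or more of the excluded genes and 728 CPM in all VC cells outside the gate. P2RX3, an ATP receptor of sensory neurons, was at 167 CPM in the VC neuronal groups and at 151 CPM in those sensory-type cells, and CHGA and CHGB of secretory granules, listed with autonomic neurons, were at 125 and 81.3 CPM against 42.7 and 65.2 CPM. The label of central neuron was therefore not settled by these lists. A further group of 67 VC cells led by NGEF and TMEM63C reached 14387 CPM but had a median of 1308 UMIs, and it was left unnamed and outside the neuronal groups.

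The other gated cells fell into groups led by genes of quite different tissues. Group 4 (79 VC and 123 TNF cells) had NPHS1, which encodes the podocyte protein nephrin, and the transcription factor TCF21 among its leading genes, and its 8 podocyte genes summed to 3610 CPM. Group 10 (55 and 13 cells) had S100B and SOX10 of Schwann cells and neural crest among its leading genes. Group 14 (50 and 9 cells) was led by the muscle genes MYLPF, TNNC2 and MYL1 together with FXYD2 (873 CPM), a kidney tubule gene, and its proximal tubule sum was 1157 CPM against at most 212 CPM in the other groups. Group 9 (51 and 17 cells) was led by RSPO3, IGF1 and OGN, group 15 (43 and 6 cells) by the dorsal neural tube genes MSX1 and WNT1, and group 16 (21 and 4 cells) by SPRR2F and NPY. Groups 1 (40 and 268 cells) and 6 (8 and 140 cells) were led by VCAM1 and CXCL10, cytokine-induced genes, and came mostly from the TNF library, so that they may be that library and not a type.

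Groups 8 and 12 had genes of dividing cells among their leading genes. Group 8 (59 VC and 15 TNF cells) was led by HIST1H1B, RGS16, HES6 and SOX2, with 497 CPM of ATOH1 and 264 CPM of MKI67. Group 12 (45 and 15 cells) was led by UBE2C, PIF1 and CENPE of mitosis, with 675 CPM of MKI67. Both had little STMN2, a growth cone protein of postmitotic neurons, at 116 and 278 CPM against 2426 to 3685 CPM in the neuronal groups.

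Barcodes with the highest Scrublet doublet scores, a measure of how much a cell looks like a mix of others, made up 2.17% of VC and 12.1% of TNF cells of the neuronal groups. They made up 31.3% and 17.7% of the remaining gated cells, and 9.12% and 18.8% of all cells outside the gate. By group they reached 48.5% in group 9, 40.0% in group 16, 35.1% in the podocyte gene group 4 and 26.6% in group 1. The part of doublets and of free RNA in these groups was not tested.

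The 5 neuronal groups, chosen by pan-neuronal genes that include STMN2, MAP2 and TUBB3, differed in their class factors. Group 2 (166 VC and 85 TNF cells) had RAB26, WNT16, RASD2 and ATOH1 among its leading genes. ATOH1, the proneural factor of dorsal interneuron type 1 and rhombic lip progenitors (ENSG00000172238, chr4:93828753-93830964, plus strand, GRCh38), stood at 338 CPM there, against 0 to 26.1 CPM in the other 4 neuronal groups. OLIG3, a factor of dorsal progenitors, stood at 200 CPM against 9.38 to 82.3 CPM. HES6 was at 4128 CPM and INSM1 at 624 CPM, against at most 869 and 224 CPM in the other 4. Of the neuronal groups, group 2 was thus the highest in ATOH1, OLIG3, HES6 and INSM1. It was the lowest in NHLH2, at 159 CPM against 170 to 347 CPM in the other 4.

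Groups 3 and 13 carried LHX2, LHX9 and ROBO3, genes known from commissural neurons, whose axons cross the midline. Group 3 (188 VC and 37 TNF cells) was led by DNER, VIP, LHX2, DYNC1I1 and DOCK10, and group 13 (0 VC and 60 TNF cells) by ROBO3, LHX2, TMPRSS15, SNAP91 and C1QL1. LHX2 stood at 115 and 145 CPM in these, against 1.0 to 39.9 CPM in the other 3 neuronal groups. ROBO3, the receptor that governs midline crossing, was at 272 and 406 CPM, against 211 CPM in group 5, 27.7 CPM in group 2 and 21.1 CPM in group 7. DCC, the netrin receptor gene, was highest in group 2 (340 CPM). In groups 3 and 13 LHX9, the partner of LHX2, was at 674 and 548 CPM. Group 13 held no VC cell, so it may be the TNF library and not a type of its own.

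Group 7 (50 VC and 27 TNF cells) had GPM6A, CHMP2B, NGEF and RELN among its leading genes. LHX9 was at 872 CPM, the vesicular glutamate transporter SLC17A6 at 206 CPM and the neuropeptide gene TAC1 (substance P) at 253 CPM, while ATOH1 was at 0 and INSM1 at 25.8 CPM. ONECUT2 stood at 260 CPM against 34.7 to 172 CPM in the other 4 neuronal groups. ATOH1, INSM1, NHLH1 (2.34 CPM) and HES6 (145 CPM) were at their lowest of the neuronal groups here. EBF3 was at its highest (340 CPM), and NHLH2 was at 230 CPM.

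Group 5 (149 VC and 22 TNF cells) had another set of class factors. HMX2, TFAP2A, LINC00682 and PHOX2A were among its leading genes. LHX1 was at 341 CPM, SST (somatostatin) at 281 CPM, POU4F1 at 135 CPM, and the noradrenaline enzymes TH and DBH at 47.2 and 37.2 CPM. BARHL1 was at 1.0 CPM against 77.9 to 242 CPM elsewhere in the neuronal groups, and LHX9 at 13.1 CPM against 451 to 872 CPM. The same gate therefore held neuronal cells with and without the dorsal LHX9 and BARHL1 genes.

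**Figure D2:**
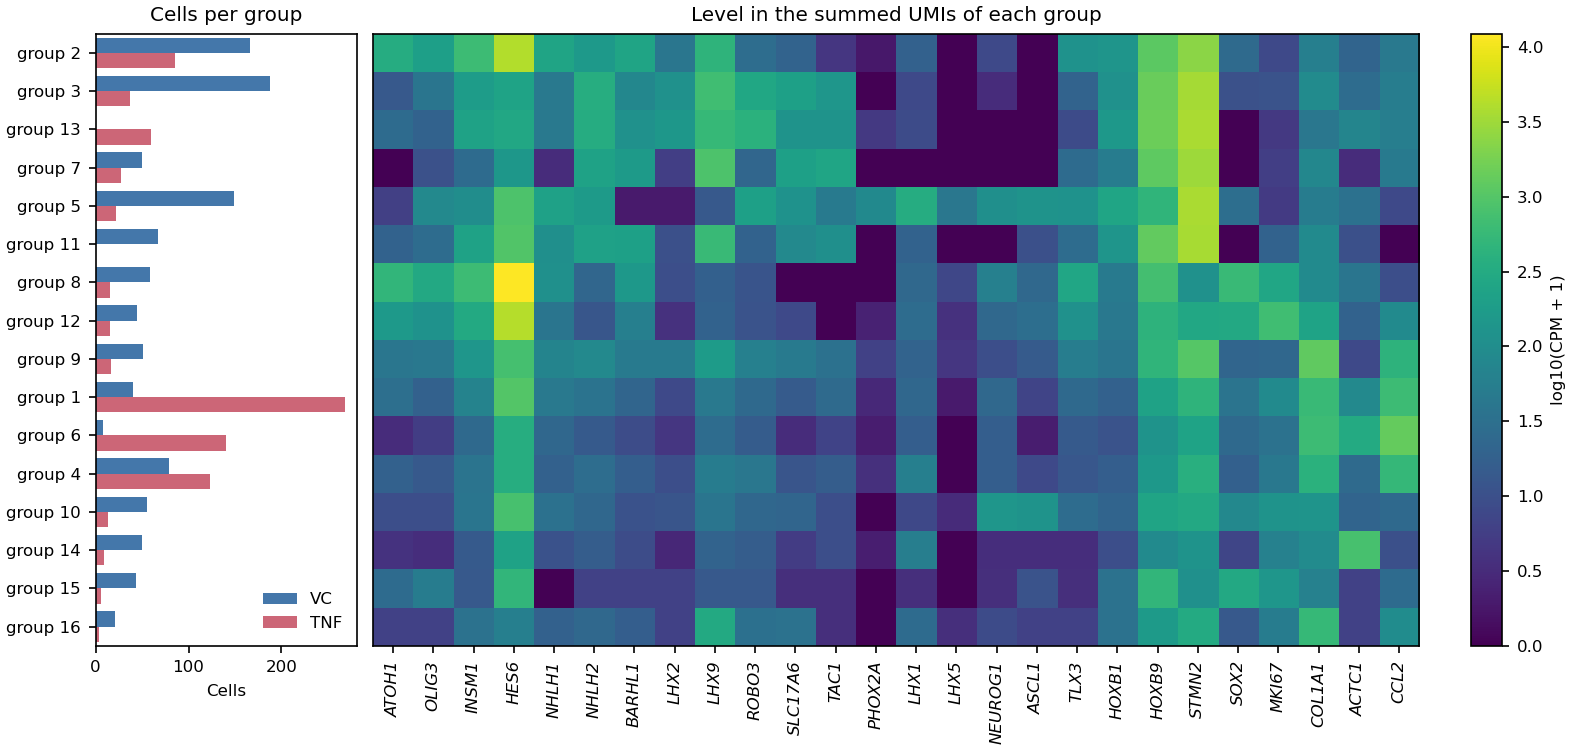
Left, number of VC (blue) and TNF (red) cells in each of the 16 groups of gated cells; right, log10(CPM + 1) of 26 genes (columns) in each group (rows). The neuronal groups 2, 3, 13, 7 and 5, chosen by a sum that includes STMN2, have it at 2426 to 3685 CPM, while ATOH1 is highest among them in group 2 (338 CPM) and LHX9 lowest in group 5 (13.1 CPM).

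Against all other cells, 26 of the 2952 genes with at least 50 CPM in gated cells of both libraries were 4-fold or more higher in both (0.881%, on CPM + 5). The same cells were gated and compared, so this count and the values that follow are a description, and the count was 89 with 4 or more gate genes asked of a cell. The gene with the highest smaller fold of the 2 libraries was MAP2, a microtubule protein of dendrites (ENSG00000078018, chr2:209424047-209734147, plus strand, GRCh38). It stood at 394 CPM in gated and 19.8 CPM in other VC cells and at 228 and 16.1 CPM in the TNF library, or 4.01 and 3.47 on the log2 scale. The cytoskeleton and growth cone were further represented by MAP6 (139 and 11.9 CPM, VC), STMN4 (162 and 26.6 CPM), the neurofilament relative INA (151 and 23.8 CPM), CRMP1 (374 and 75.9 CPM) and TAGLN3 (655 and 93.1 CPM). RNA-binding ELAVL3 was at 241 and 36.0 CPM, and the netrin receptor gene DCC at 103 and 4.38 CPM.

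The 25 genes also held transcription factors. HES6, a Hes family protein that favours differentiation, was at 1658 and 168 CPM in VC and at 901 and 134 CPM in TNF. INSM1, a zinc finger factor of newborn neurons, was at 173 and 20.4 CPM in VC, and NHLH2 at 105 and 6.30 CPM. LHX9 stood at 215 and 28.0 CPM, POU3F1 at 89.6 and 7.67 CPM, UNCX at 102 and 15.3 CPM and HOXB9 at 568 and 107 CPM. Receptors and signalling genes were SSTR2, a somatostatin receptor (143 and 12.2 CPM), the Notch-binding DNER (107 and 9.63 CPM), ROBO3 (77.8 and 9.50 CPM) and SCG3 of secretory granules (144 and 29.9 CPM). The noncoding RNAs MIAT (240 and 29.3 CPM), LINC02609 (113 and 6.70 CPM) and AL359091.1 were on the list too, as were KLHL35 and TLCD3B. The smaller log2 fold of these 25 genes ran from 2.05 to 3.47.

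The same contrast for the neuronal groups alone gave 194 of 3111 genes (6.24%). MAP2 was then at 869 CPM in VC and 728 CPM in TNF, STMN2 at 3337 and 2735 CPM (364 and 199 CPM in other cells), and DCX, which binds microtubules in migrating neurons, at 856 and 635 CPM (88.1 and 48.5 CPM). MAP2, STMN2 and DCX are among the 16 pan-neuronal genes by which the groups were chosen, so their excess restates that choice. The dorsal factor BARHL1 stood at 107 CPM against 0.612 CPM in VC and at 150 against 1.29 CPM in TNF. ATOH1 stood at 99.6 against 1.03 CPM in VC and at 106 against 1.31 CPM in TNF, and VIP, a neuropeptide, at 166 against 1.02 and 124 against 1.84 CPM. MIR124-2HG, host of the neuronal microRNA miR-124, was at 206 against 3.55 CPM in VC, and HOXB1 at 162 against 5.56 CPM. NSG2, of neuronal endosomes, was at 151 against 4.85 CPM and CHGA, of secretory granules, at 125 against 5.23 CPM. VIP, MIR124-2HG and NSG2 were chosen here after their values were seen.

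A gene entered this contrast only with 50 CPM or more in the neuronal groups of both libraries, so genes that are high there were favoured, and the names that follow are a description. Of the 20 commitment genes listed 13 reached this level, and ATOH1, NHLH1, NHLH2, INSM1, EBF1, EBF3, ST18, MYT1, MYT1L, HES6, SRRM4 and SOX11 were 4-fold higher in both libraries. Of the 21 axon guidance genes 10 reached it, and ROBO3, DCC, PLXNA2, CNTN2, L1CAM, SLIT1, DPYSL3 and CRMP1 were past the fold. Of the 26 synapse and excitability genes 8 reached it, with RAB3A, SCN3A and CACNA2D1 among those past the fold. Past the fold were thus 12 of 13 commitment, 8 of 10 axon guidance and 4 of 8 synapse and excitability genes at this level, where 6.24% of all genes tested were. Apart from the 13, 10 and 8 genes, the members of these lists were below the level in at least 1 library.

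HOX genes, which encode position from hindbrain to tail, were among the tested genes with 18 of 39 members in gated cells and 22 in the neuronal groups. HOXB1, HOXB2, HOXB5, HOXB6, HOXB8 and HOXB9, all of the HOXB cluster, were 4-fold or more higher in the neuronal groups of both libraries, where 6.24% of all genes tested were. In gated cells HOXB9 alone of the 18 was past the fold, where 0.881% of all genes tested were. HOXB9 (ENSG00000170689, chr17:48621156-48626358, minus strand, GRCh38) was at 1079 and 1146 CPM there, against 107 and 88.4 CPM in other cells. HOXA9 was at 273 CPM in gated and 132 CPM in other VC cells, and HOXC10 at 55.4 and 47.9 CPM. The most posterior members were near 0, with HOXD10 at 2.98 and HOXA11 at 3.75 CPM in gated VC cells and no UMI of HOXA13, HOXC12, HOXC13, HOXD12 or HOXD13 in either library. A count of 0 allows up to 0.331 CPM in gated VC and 0.750 CPM in gated TNF cells.

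Apart from EMX2, genes of the forebrain, midbrain and retina were at or near 0. No UMI of OTX2, SIX3, SIX6, RAX, TBR1, EOMES or NKX2-1 was found in gated cells of either library. EMX2, which is also active in the embryonic kidney, was at 79.3 CPM in gated and 124 CPM in other VC cells. The 18 genes of this list summed to 88.3 CPM in gated and 132 CPM in all other VC cells, and to 71.8 and 105 CPM in the TNF library. Their low level was thus not particular to gated cells.

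Of the 25 transmitter genes listed, 4 reached 50 CPM in the neuronal groups of both libraries, a level that favours genes high there. Of these SLC17A6 and TAC1 were past the 4-fold limit, against 6.24% of all genes tested. SLC17A6 had 142 CPM in VC and 85.9 CPM in TNF neuronal groups, against 5.18 and 2.44 CPM in other cells, and TAC1 had 85.4 and 106 CPM against 4.91 and 5.69 CPM. The GABA enzyme genes had few UMIs, with 3 and 3 UMIs of GAD1 in all gated VC and TNF cells and 17 and 3 of GAD2. The GABA and glycine transporter genes SLC32A1 (5 and 6 UMIs) and SLC6A5 (3 and 5 UMIs) were as low, and CHAT of cholinergic neurons had none. By group, 15 of the GAD2 UMIs were in group 5 (15.1 CPM, 8.43 to 24.8), and groups 2, 3, 7 and 13 had none.

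Among the other cells, the sensory-type ones (2 or more of the 4 excluded genes, 898 VC and 864 TNF cells) had a pan-neuronal sum of 13978 CPM in VC and 8981 CPM in TNF. LHX9 was at 215 CPM in gated against 20.3 CPM in sensory-type VC cells, DCC at 103 against 8.62, UNCX at 102 against 13.4 and MAP2 at 394 against 78.3 CPM. POU3F1, RMST, TMEM176A, LINC02609, MGAT4C and ROBO3 were the others of the 10 highest in gated cells. In the opposite direction SHOX2 was at 2.98 against 246 CPM, the neurotrophin receptor gene NTRK3 at 10.0 against 217 CPM, and PPP1R17 at 67.2 against 798 CPM. RGS10, TLX2, C11orf96, ADAM11, HPCA and SDK1 were also among the 10 lowest. RUNX3 of proprioceptive neurons had 0 and 1 UMIs in gated cells and 15 and 5.8 CPM in sensory-type cells. The gate excluded sensory genes, so this difference is partly built in.

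Against the progenitor-type cells (3 or more of SOX2, PAX3, PAX6, MSX1, ZIC1, FABP7, HES5 and TTYH1; 855 VC and 298 TNF cells), the 10 highest genes in gated cells held both structural genes of neurons and factors of newborn ones. STMN2 stood at 1418 against 18.5 CPM in VC, DCX at 402 against 25.9, ELAVL3 at 241 against 3.75, INSM1 at 173 against 1.61 and NHLH2 at 105 against 0.535 CPM. LHX9, RTN1, SSTR2, SCG3 and GNG3 were the rest. Gated and sensory-type cells were left out of the progenitor-type cells, so this contrast is partly built in as well.

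TNFα signals through TNFRSF1A and TNFRSF1B to NF-κB, which switches on chemokines, adhesion molecules and its own inhibitor NFKBIA. In gated cells, 70 of 6826 genes with a mean of at least 20 CPM were 2-fold or more higher in the TNF library (1.03%) and 29 were as much lower (0.425%). In the neuronal groups 38 (0.570%) were higher and 32 (0.480%) lower of 6665 genes, and in all other cells 61 (0.886%) and 6 (0.0871%) of 6887. The neuronal groups are made up differently in the libraries, with 166 of 553 VC and 85 of 231 TNF cells in group 2, 149 and 22 in group 5 and 0 and 60 in group 13, and the part of this makeup in their ratios was not tested. The libraries are 1 per condition, so these folds compare libraries, with counting intervals only. In gated cells thinned to 1500 UMIs 264 genes were higher and 142 lower, and without high doublet scores 113 and 44.

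Of the 10 highest ratios in gated cells, 6 were those of listed NF-κB targets (CCL2, IL32, VCAM1, CXCL10, RELB and NFKBIA). CCL2, a monocyte chemokine (ENSG00000108691, chr17:34255274-34257208, plus strand, GRCh38), was at 11.2 CPM in VC and 816 CPM in TNF gated cells, a ratio of 72.5 (59.6 to 89.2). It was at 1.90 and 159 CPM in the neuronal groups and at 32.8 and 1254 CPM in all other cells. IL32, a cytokine, went from 18.1 to 409 CPM in gated cells and VCAM1, an adhesion molecule, from 6.94 to 157 CPM. FDCSP and CXCL10 had no UMI in gated VC cells, and were at least 474-fold and at least 159-fold higher in TNF against a floor of 3 UMIs. NFKBIA (ENSG00000100906, chr14:35401079-35404749, minus strand, GRCh38) went from 48.4 to 278 CPM, a ratio of 5.74 (5.14 to 6.43). FDCSP, TNFRSF4, UBD and SULT1E1, the other 4 of the 10, were not on the list.

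The neuronal groups of the TNF library had a lower summed level of NF-κB targets than all gated cells. Of the 30 NF-κB targets, 9, 6 and 15 had a mean of at least 20 CPM in gated cells, the neuronal groups and all other cells, a level that a gene can reach through the TNF library alone, and 8, 4 and 13 were past the fold, where 1.03%, 0.570% and 0.886% of all genes were. The summed level of the 30 went from 200 to 2109, from 122 to 559 and from 323 to 3181 CPM. The NFKBIA ratio was 2.5 (1.84 to 3.39) in the neuronal groups and 5.57 (5.43 to 5.72) in all other cells. CCL2 (84.0 against 38.2), IL32 (40.2 against 21.6) and VCAM1 (50.6 against 11.2) had higher ratios in the neuronal groups than in all other cells, from at most 7 UMIs each in the VC neuronal groups. By gate genes, CCL2 in the TNF library was at 957 CPM in cells with 3, at 897 CPM in those with 4 and at 488 CPM in those with 5 to 8. TNFRSF1A was at 11.7 and 9.20 CPM in VC and TNF neuronal groups, against 49.2 and 53.6 CPM in all other cells, and TNFRSF1B had no UMI in the neuronal groups of either library, which allows up to 0.949 and 3.07 CPM.

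Stromal, podocyte, proximal tubule and muscle RNA stood higher in the TNF than in the VC neuronal groups, and glia and neural crest RNA lower (78.1 CPM in VC and 58.3 CPM in TNF). Their stromal sum was 187 CPM in VC and 478 CPM in TNF, and COL1A1 was at 48.4 and 128 CPM. Of the 8 genes 4 had a mean of at least 20 CPM. A gene can reach this level through the TNF library alone, as POSTN did (16.8 and 56.2 CPM). All 4 were past the fold, where 0.570% of all genes were higher. In all other cells 7 were at this level and 0 past the fold, where 0.886% of all genes were higher. As a share of the level in all other cells of the same library, the stromal sum was 8.33% in VC and 19.9% in TNF, the podocyte sum 7.38% and 11.5% and the proximal tubule sum 5.06% and 8.81%. CCL2 in the neuronal groups was 12.7% of its level in the other TNF cells, IL32 was 15.5%, NFKBIA 19.3%, B2M 22.1%, IER3 61.0% and SOD2 80.7%. In VC the same shares were 5.78%, 8.35%, 42.9%, 15.9%, 72.7% and 98.9%, and SOD2 was at 29.7 CPM in VC and 29.6 CPM in TNF neuronal groups. The 6 endothelial and immune genes summed to 6.01 CPM in VC and 8.18 CPM in TNF neuronal groups and to 23.8 and 34.3 CPM in gated cells, where AIF1 was the most abundant (15.7 and 28.3 CPM) and PECAM1 and PTPRC had no UMI. The part of free RNA from other cells in the CCL2, IL32 and NFKBIA values was not tested.

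**Figure D3:**
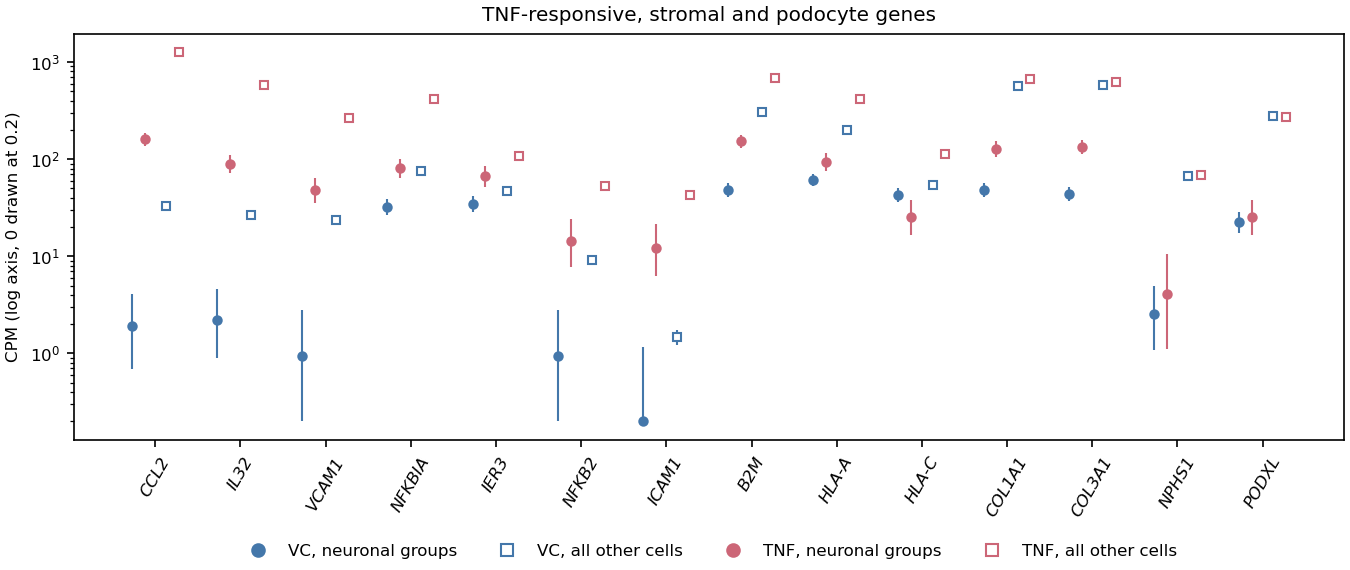
CPM (log axis, 0 drawn at 0.2) of 14 genes in the neuronal groups (filled circles) and in all other cells (open squares), VC in blue and TNF in red, with exact 95% Poisson intervals. CCL2 is at 159 CPM in TNF neuronal groups and 1254 CPM in the other TNF cells, and COL1A1 at 48.4 CPM in VC and 128 CPM in TNF neuronal groups.

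Among the 10 lowest ratios in gated cells were that of TFAP2A, a leading gene of group 5, and those of HOX genes. TFAP2A, of neural crest and dorsal neural tube, was at 37.6 CPM in VC and 10.3 CPM in TNF gated cells, a ratio of 0.273. Its ratio in all other cells was 0.535. Group 5 holds 149 VC and 22 TNF cells, and the part of this makeup in the ratio was not tested. HOXB4, HOXB5, HOXB6 and HOXA4 were at 0.398, 0.362, 0.420 and 0.370 of their VC level, and 5 of the 28 tested HOX genes were past the fold downward, against 0.425% of all genes tested. In the neuronal groups the ratios of the same named genes were 0.409, 0.482, 0.498 and 0.372. They were below 1 in all other cells too, at 0.648, 0.592, 0.642 and 0.779. There 0 of 22 tested HOX genes were past the fold downward, where 0.0871% of all genes were. The neuronal groups made up 51.6% of gated VC and 27.5% of gated TNF cells, and the part of this in the HOX ratios was not tested. SOX2 (0.329) and ZIC1 (0.342), both progenitor factors, FXYD2 (0.389) and MT1G (0.321, one of a set of near-identical metallothionein genes and therefore uncertain) were also among the lowest ratios, and the last 2 turned to log2 ratios of 0.93 and 0.71 in thinned cells. FXYD2 and MT1G were leading genes of group 14 (50 VC and 9 TNF cells), and SOX2 of group 8 (59 and 15). The part of this makeup in their ratios was not tested either. In all other cells SOX2, ZIC1, FXYD2 and MT1G had ratios of 0.480, 0.363, 0.781 and 0.464. No pan-neuronal gene of 16 was past the fold in gated cells or in the neuronal groups, where their median log2 ratios were -0.67 and -0.34, against -0.05 and -0.04 over all genes tested. The neuronal groups were chosen by the summed level of these 16 genes, so their ratios there are partly built in and are a description. In all other cells 13 of the 16 genes were tested. Their median log2 ratio there was -0.76, against -0.03 over all genes tested, so the lower level was not particular to gated cells.

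The bulk libraries were not used by the gate, so they show whether the genes of these cells changed in the spheroids. Of them, set 2 has replicates of a group, with 2 libraries a day. A bulk change can come from more or fewer such cells, from more or less RNA per cell or from other cells that carry the same genes. These sources cannot be told apart. In sensory-type VC cells, for example, MAP2 was at 78.3 CPM and HES6 at 923 CPM. The values are log2(CPM + 1) as deposited, tested with limma. From day 21 to day 29 of set 2, 2778 genes rose (10.0%) and 2303 fell (8.33%) of 27650. Of the 25 leading genes 17 rose and 0 fell, with a median log2 change of 1.26 against -0.02 over all genes. Centring each library on its median, which shifts the day 29 libraries by 0.0976, gave 2408 higher and 4667 lower genes, and 18 and 1 of the 25.

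MAP2 stood at 4.96 and 4.62 on day 21, at 5.75 and 6.04 on day 25 and at 6.34 and 7.08 on day 29, and rose by 1.92 ± 0.23 (SE, limma adjusted p = 0.00109). The day 21 and day 29 libraries did not overlap, and the set 1 libraries read 5.98, 6.02 and 6.65 on the same days. LHX9 (ENSG00000143355, chr1:197911902-197935478, plus strand, GRCh38) stood at 2.12 and 2.06, then 4.12 and 4.12, then 4.48 and 5.48, and rose by 2.89 ± 0.27 (limma adjusted p = 0.000409). MAP6, STMN4, INA, POU3F1, NHLH2, MIAT and LINC02609 rose by 1.85, 2.18, 2.01, 1.70, 1.67, 1.45 and 1.41, with limma adjusted p from 0.000792 to 0.00861. MIAT did not pass without day 21 replicate 1 or without replicate 2 (limma adjusted p = 0.0530 and 0.0735). BARHL1 stood at 1.83 and 1.37 on day 21 and at 3.25 and 4.38 on day 29, and rose by 2.21 (limma adjusted p = 0.00389). SLC17A6 rose by 2.48 (limma adjusted p = 0.000362), and NSG2 from 2.29 and 2.35 to 5.39 and 6.33.

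Several genes of the commitment step did not pass the test. HES6 stood at 5.12 and 5.19 on day 21 and at 4.74 and 5.59 on day 29, so that the days overlapped (+0.01, limma adjusted p = 0.987). INSM1 (+0.33, limma adjusted p = 0.540), ATOH1 (-0.19, 0.776) and OLIG3 (+0.23, 0.744) did not pass either, and NEUROG1 and the Notch ligand gene DLL1 fell by 0.87 and 0.75 (limma adjusted p = 0.0464 and 0.0239). In set 1, INSM1 read 5.16, 4.93 and 3.92 and HES6 6.07, 6.15 and 5.35 from day 21 to day 29.

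By list, beside the 10.0% of all genes that rose and the 8.33% that fell, 15 of 16 pan-neuronal genes rose and 0 fell, as did 20 and 1 of 26 synapse and excitability genes and 18 and 1 of 33 HOX genes. Of the commitment genes 7 of 18 rose and 1 fell, and of the Notch pathway genes 0 of 14 rose and 6 fell. Other tissues moved as well, with 6 of 8 stromal and 5 of 6 muscle genes higher and 6 of 8 podocyte genes lower. Of 18 genes of sensory neurons, which these cultures also hold, 7 rose.

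With 2 libraries a day the counts rested on single libraries. Without day 21 replicate 1, 1571 genes rose, 964 fell and 9 of the 25 leading genes rose. Without day 21 replicate 2 the counts were 1398, 960 and 10, and without day 29 replicate 2 they were 1891, 1443 and 14.

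**Figure D4:**
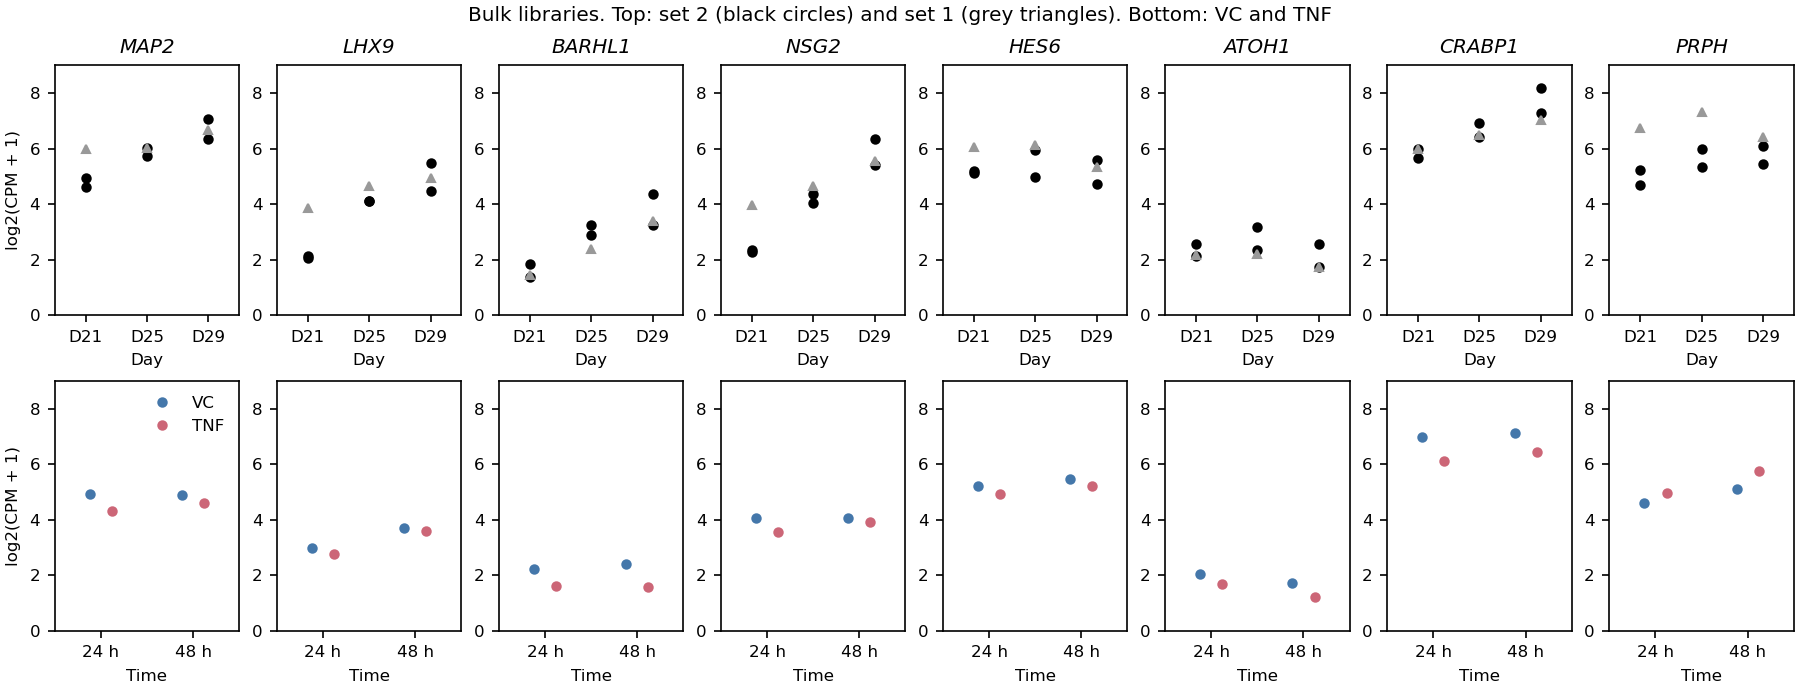
Deposited log2(CPM + 1) of 8 genes. Top row, days 21, 25 and 29 in set 2 (black circles) and set 1 (grey triangles); bottom row, VC (blue) and TNF (red) at 24 h and 48 h. MAP2, LHX9, BARHL1 and NSG2 are higher on day 29 than on day 21 in every library, while HES6 and ATOH1 overlap between the days in set 2.

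In TNFα-treated spheroids, fitted with a time term so that 24 h and 48 h stand in for replicates, 1776 genes were higher (8.42%) and 2285 lower (10.8%) of 21093. DESeq2 on the recovered reads gave 1198 and 970. With 1 library per condition and time, the p-values of this comparison do not measure a spread between replicates. Of the 25 leading genes 8 fell and 0 rose by limma (MAP2, LINC02609, NHLH2, MAP6, HES6, INSM1, DNER and POU3F1), with a median log2 change of -0.16 against -0.03 over all genes, and 2 fell by DESeq2 (MAP2 and MAP6). MAP2 stood at 4.91 and 4.87 under VC (24 h, 48 h) and at 4.30 and 4.61 under TNF, and fell by 0.44 ± 0.09 (limma adjusted p = 0.00221). The falls were small, from 0.27 (HES6, limma adjusted p = 0.0149) to 0.60 (LINC02609, limma adjusted p = 0.00209).

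Some dorsal class and commitment genes fell too. BARHL1 stood at 2.21 and 2.41 under VC and at 1.62 and 1.57 under TNF, and fell by 0.72 (limma adjusted p = 0.000394). OLIG3 fell by 0.57 (limma adjusted p = 0.00324) and ATOH1 by 0.43 (limma adjusted p = 0.0164), and neither passed by DESeq2 (adjusted p = 0.141 and 0.386). LHX9 (-0.16) and SLC17A6 (-0.13) did not pass (limma adjusted p = 0.379 and 0.534). Over all genes 10.8% fell and 8.42% rose by limma. Of 18 commitment genes 8 fell and 1 rose by limma, and 0 fell and 1 rose by DESeq2. Of 31 spinal class factor genes 5 fell and 4 rose by limma, and 4 fell and 0 rose by DESeq2, so that the limma shares in both directions were near those over all genes. Of 30 HOX genes 9 fell and 0 rose by limma and 4 fell by DESeq2, and of the pan-neuronal genes 3 of 16 rose and 2 fell.

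Of 17 sensory genes 7 rose and 1 fell by limma, and 5 rose and 1 fell by DESeq2, where 8.42% of all genes rose and 10.8% fell by limma. NF-κB targets rose in 26 of 27, with CCL2 at 3.32 and 3.39 under VC and 7.62 and 7.23 under TNF (+4.07, limma adjusted p = 4.36e-15). All 8 podocyte genes fell. The bulk spheroids and the single-cell wells are different preparations, and the 2 kinds of library were compared by direction only.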

How the data were processed

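UMI counts of the 2 single-cell libraries were deposited as filtered matrices without normalization (Cell Ranger 6.0.1 per the file headers; the submitters' processing notes list 2.1.1, hg19 and hg38, and which build was used is not stated). The authors aligned bulk reads with STAR 2.7.8a to GRCh38, counted them with HTSeq (0.11 in the submitters' processing notes, another version in the study's methods) and deposited log2(CPM + 1) values. Whole reads, within 0.01 of a whole number, came back for 99.97% of the values in the library with the lowest share, totals ran from 19063018 to 59189805 reads, and edgeR 4.0.16 on them called 3238 genes higher and 2323 lower at day 29, and 2322 and 2133 under TNF. Table genes were matched to symbols by gene ID (22001 of 27650 in set 2, 18976 of 21093 in the TNF set), and positions are from GENCODE 44.

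Gated cells were clustered with scanpy 1.11.5 and leidenalg 0.10.2 (2555 variable genes, 20 components, 20 neighbours, resolution 0.8), with values centred within each library. Scrublet's automatic threshold marked 0 cells, so the highest scores were marked at 0.8% per 1000 cells. Levels are summed UMIs scaled to 1000000 with exact Poisson intervals, and ratios have exact conditional intervals, all covering counting error only. Fold counts used CPM + 5. Bulk values were tested with limma 3.58.1 (eBayes with trend, Benjamini-Hochberg over all genes) at 0.05, beside edgeR and DESeq2 1.42.0. On simulated data 23 of 100 genes changed by 1 log2 unit and 99 of 100 changed by 2 were recovered among 27650 genes in the day 29 design, and 82 and 100 in the TNF design, with 0 and 16 unchanged genes called. Named genes are the 25 highest against all other cells, the 10 at either end of the other contrasts, members of the gene lists and the 5 leading genes of each group. The members, lists and rules were chosen with earlier results of these data known. HLA genes and metallothioneins have near-identical copies and are uncertain. One further single-cell sample was not analysed here, and some genes are not reported here.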

Additional observations from a re-analysis of the deposited data

Results flagged for a closer look

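At 24 h and 48 h of TNFα, 9 of the 25 leading genes differed from VC in opposite directions in the bulk spheroids, and none of these differences between the times was tested. The TNF minus VC values on the log2 scale at 24 h and 48 h were 0.048 and -0.26 for SSTR2, -0.19 and 0.18 for MIAT, -0.24 and 0.10 for KLHL35, and -0.31 and 0.13 for STMN4. They were 0.048 and -0.021 for TLCD3B, -0.15 and 0.17 for HOXB9, -0.51 and 0.23 for SCG3, 0.018 and -0.010 for CRMP1, and -0.25 and 0.13 for UNCX.

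In the single cells, 8 genes of the lists, gate genes left out, stood on opposite sides of 1 in their TNF to VC ratio in the neuronal groups and in all other cells, with counting intervals that leave out 1, and with 1 library per condition this difference was not tested. The neuronal genes TUBB3 (1.03 and 0.671) and HES6 (1.19 and 0.802) were above 1 in the neuronal groups and below it elsewhere. So were the progenitor genes TTYH1 (1.57 and 0.750) and MSX1 (1.90 and 0.490). NCAM1 (0.897 and 1.17) and NES (0.764 and 1.17) had the reverse order, as did HLA-C (0.594 and 2.1), whose reads near-identical HLA genes may share. The neuronal groups are made up differently in the libraries: group 2, the highest in HES6, held 166 of 553 VC and 85 of 231 TNF cells, group 5 held 149 and 22, and group 13 held 0 and 60. The part of this makeup was not tested. POSTN of stroma (3.35 and 0.948) was above 1 in the neuronal groups and below it in all other cells.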

How the results depend on the processing

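The gated share was 9.0% of VC and 3.63% of TNF cells. It was 6.43% and 1.63% with 4 or more gate genes, 17.1% and 13.1% with 2 or more, 6.62% and 1.69% without CRABP1, 5.43% and 2.48% with none of the excluded genes allowed, 5.65% and 1.75% in thinned cells and 4.64% and 0.997% for the neuronal groups alone, and 8.35% in VC without high doublet scores. Of the 26 genes past the 4-fold limit, the count was 6 with 20 CPM added, 45 with no filter, 11 at 100 CPM or more, 89 with 4 or more gate genes and 187 for the neuronal groups against all remaining cells. The 70 genes higher in TNF gated cells became 38 with 20 CPM added, 134 with no filter, 16 at 100 CPM or more, 113 without high doublet scores, 38 in the neuronal groups and 264 in thinned cells. The 29 lower genes became 46 with 1 CPM added, 7 with 20 CPM added, 59 with no filter, 4 at 100 CPM or more, 44 without high doublet scores and 142 in thinned cells, where FXYD2 and MT1G reversed to log2 ratios of 0.93 and 0.71. Neuronal groups were 43.6% of gated cells at resolution 0.4.

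In set 2, median centring gave 4667 lower genes, and UNCX was the 1 leading gene called lower by edgeR, DESeq2, without the added 1, at a mean of 1 or more, median centred and with the replicate block. Leaving out each library in turn gave 1398 to 2964 higher and 960 to 2453 lower genes, and 9 to 18 leading genes higher and 0 to 1 lower. The replicate numbers share only a number (correlations of deviations 0.143, 0.0753 and 0.270 over 18572 genes). With the replicate block 3149 genes were higher and 2907 lower, and 17 and 1 of the 25. Under TNF, DESeq2 gave 970 lower genes and 2 leading ones. For single bulk genes, 13 calls of 45 genes in the TNF comparison were lost and 10 gained over the alternatives, and 28 and 29 in set 2. A bulk gene at 1 CPM rests on about 19 reads in the shallowest library, and gated TNF genes below 20 CPM on few UMIs. The causes of these changes were not tested.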

Other observations

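Genes of retinoic acid handling, a signal that sets hindbrain and spinal identity, were not part of the comparisons above. Of the 12 retinoid genes 4 reached 50 CPM in gated cells of both libraries. None of these was 4-fold higher in gated cells, where 0.881% of all genes tested were, so 4 genes cannot tell them from the rest. In bulk set 2, 8 of 12 retinoid genes rose from day 21 to day 29 and 0 fell by limma, where 10.0% of all genes rose and 8.33% fell. Under TNFα 3 rose and 4 fell by limma, where 8.42% of all genes rose and 10.8% fell, and 2 rose and 3 fell by DESeq2.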
